A study of Arabidopsis thaliana with 7 samples.

Results

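The transcripts described here come from nuclear genes of Arabidopsis thaliana that encode proteins of the plastid ribosome. They were chosen by gene identifier from a fixed list of 39 genes, and all 39 were found among the 27655 genes of the deposited expression table. By protein, 9 of them belong to the small (30S) subunit and 24 to the large (50S) subunit and have bacterial counterparts, and 6 are plastid-specific ribosomal proteins (PSRPs).

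Plastids translate their own messages on bacterial-type ribosomes. The genes for the ribosomal proteins are divided between the chloroplast genome and the nucleus, and the nuclear-encoded proteins are made in the cytosol and imported. Chloroplast ribosomes make the plastid-encoded core subunits of the photosystems and the large subunit of Rubisco, and loss of many of their nuclear-encoded proteins arrests Arabidopsis embryos.

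RNA sequencing compared 3 libraries of Col-0 wild-type (WT) seedlings with 4 libraries of the glk1 glk2 double mutant, which is mutated in both GOLDEN2-LIKE genes. GLK1 and GLK2 encode GARP-family transcription factors known for activating genes of chlorophyll synthesis and light harvesting. All seedlings were 12 days old, and both genotypes had grown on medium with 1/2 strength MS salts in long days at 16 °C and were collected at ZT4, which is 4 h after lights on, without any further treatment named in the labels. Total RNA came from seedlings, so fewer cells with chloroplasts and less of a transcript per cell cannot be told apart. The sources used here do not give the mutant alleles, the number of seedlings in a library or whether replicates were planted separately. The p-values therefore measure only how far these 7 libraries spread, and that spread may be technical.

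The deposited unit is TPM, transcript abundance given as a level per transcript length scaled to the same total in every library. Levels of different genes can thus be set side by side, but a loss of abundant transcripts lifts the TPM of all others. Fold changes are differences in mean log2(TPM + 1), mutant less WT, and their median over the 19127 genes tested was 0.33. With trimmed mean of M values (TMM) scaling, which centres most genes on no change, that median was 0.01. Each gene was tested with limma on both scales with Benjamini-Hochberg adjustment over all tested genes. A gene is said here to have risen or fallen only where it was called at an adjusted p under 0.05 in the same direction with both. GLK1 transcripts fell to 51.7 ± 2.93 TPM (SD, n = 4) in the mutant from a WT level of 191 ± 10.4 TPM (SD, n = 3). GLK2 transcripts fell to 50.6 ± 3.49 TPM (SD, n = 4) from 158 ± 2.85 TPM (SD, n = 3).

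Transcripts of the plastid ribosomal proteins held close to their WT share of the library in the mutant, while those of most genes took a larger share. None of the 39 rose and none fell with both scalings, against 3.2% of all tested genes called higher and 2.53% called lower in that way. In TPM alone, limma called 2 of the 39 (5.13%) higher and 0 lower, where 63.0% of all genes were called higher and 2.56% lower. After TMM scaling it called 0 higher and 3 (7.69%) lower, where 3.2% of all genes were called higher and 4.96% lower. At an unadjusted p under 0.05, limma gave 4 members higher in TPM with 0 lower, and 31 lower with 0 higher once TMM-scaled. Of all 19127 tested genes, 12864 were higher and 524 lower at that threshold in TPM, and 2332 higher and 2349 lower with TMM scaling.

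The values of the genotypes overlapped in TPM for 37 members. The mutant lay wholly above WT for 2 members and wholly below for 0, against 62.8% and 2.54% of all tested genes. With TMM scaling the mutant lay wholly below WT for 22 members and wholly above for 0, against 11.7% and 12.1% of all tested genes.

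The changes of the members lay in a narrow range on both scales. Their median log2 fold change was 0.05 in TPM, with a range from -0.11 to 0.46, against the median of 0.33 for all genes. After TMM scaling it was -0.31, with a range from -0.48 to 0.10, where the quartiles of all genes were -0.12 and 0.13. Of the 39, 37 lay below the all-gene median in TPM and 36 below the lower quartile of all genes, which was 0.20. After TMM scaling 38 of the 39 (97.4%) had a fold change below 0, against 47.6% of all tested genes. In TPM 26 members had a fold change above 0 and 12 below 0, so the direction of many members depended on the scale.

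The 3 classes of protein had nearly the same median change. For the 9 small-subunit proteins the median fold changes in TPM and TMM-scaled TPM were 0.05 and -0.31, and for the 24 large-subunit proteins 0.06 and -0.30. The 6 PSRPs had medians of 0.05 and -0.31. The summed TPM of small-subunit over large-subunit members averaged 0.326 ± 0.00282 (SD, n = 3) for WT against 0.321 ± 0.00419 (SD, n = 4) for glk1 glk2, and the groups overlapped.

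**Figure D1:**
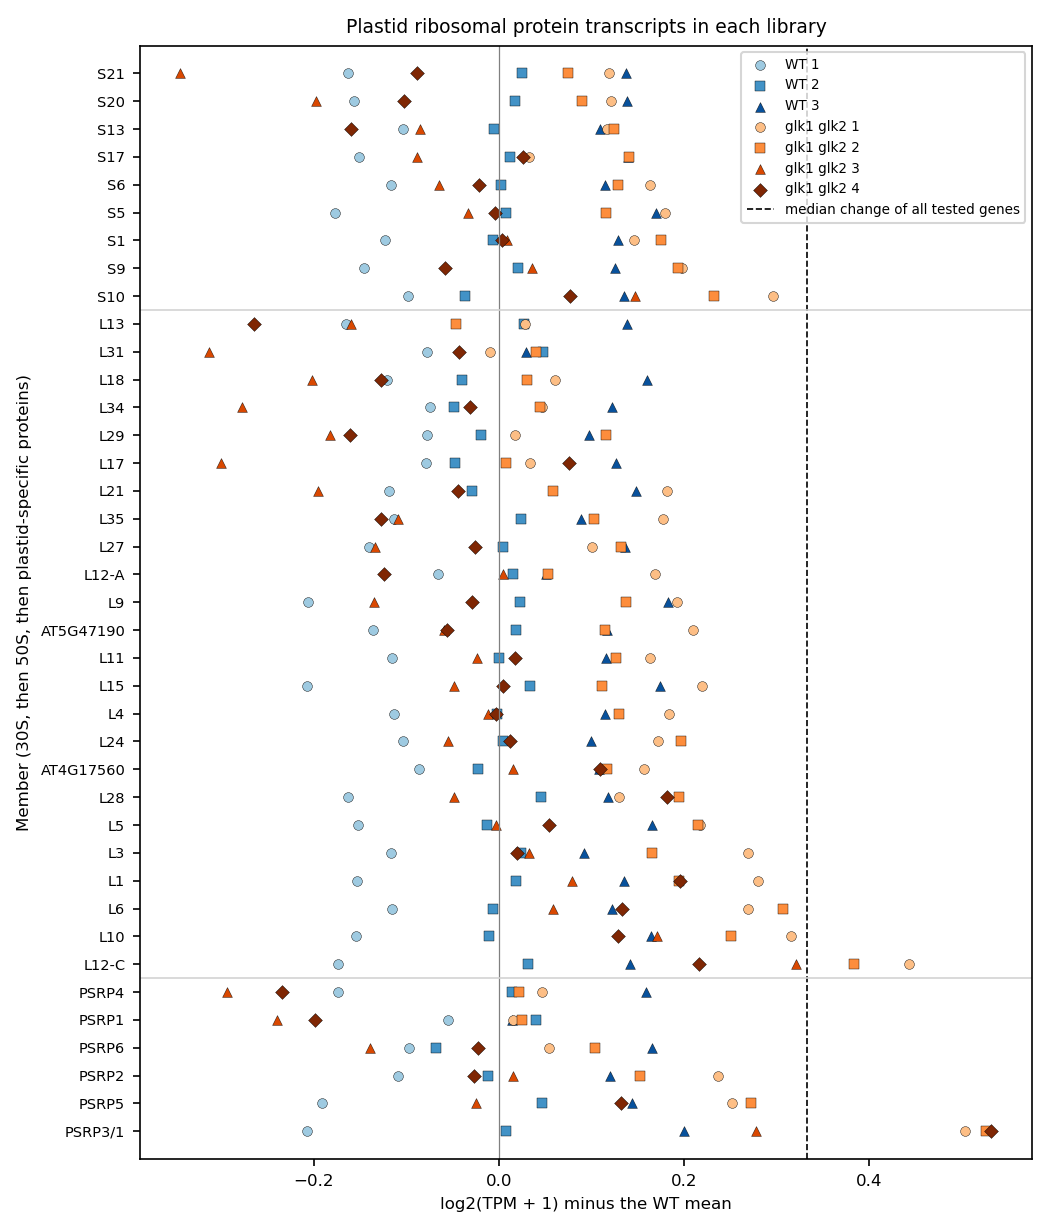
Level of each of the 39 transcripts in each of the 7 libraries, as log2(TPM + 1) minus the mean of the 3 WT libraries, with blue symbols for WT and orange to brown symbols for glk1 glk2. The dashed line is the median change of all 19127 tested genes, 0.33. Mutant points of 37 members overlap the WT points, and only those of L12-C and PSRP3/1 lie to the right of all 3 WT points.

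All 39 transcripts were abundant in every library. Their WT means ran from 130 TPM for one of the L19 genes to 656 TPM for S17, a ratio of 5.05. The WT libraries were ordered alike for the whole set. WT replicate 1 was the lowest WT library for 39 of the 39 members in TPM, whereas it was lowest for 37.7% of all tested genes. WT replicate 3 was the highest for 37 of the 39, against 32.9% of all genes. The low place of WT replicate 1 was not particular to the members. Among 30 transcripts of cytosolic ribosomal proteins, WT replicate 1 was lowest for 73.3%. WT replicate 2 was the highest for 66.7% of these 30 and WT replicate 3 for 26.7%, unlike the members. The summed TPM of 14 plastid translation factors followed the members' order, at 1995.5, 2182.8 and 2335.4 in WT replicates 1 to 3. That of 12 genes for plastid ribosome assembly was 238.3, 269.3 and 296.2. In the mutant, replicate 3 was the lowest library for 28 members and replicate 4 for the other 11, and replicate 1 was the highest for 25.

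The shared steps between libraries of one genotype were larger than the members' median change of 0.05 between genotypes in TPM. The median member lay -0.12, 0.01 and 0.13 from the WT mean in WT replicates 1 to 3 on the log2(TPM + 1) scale. In mutant replicates 1 to 4 it lay 0.17, 0.13, -0.05 and -0.02 from that mean, whereas the median of all tested genes lay 0.33, 0.27, 0.38 and 0.34 from it. The coefficient of variation of a member over the WT libraries had a median of 9.38%, against 4.55% for 30 transcripts of cytosolic ribosomal proteins. The median SE of the log2 fold change in TPM was 0.089 for members, 0.097 for all tested genes and 0.064 for the cytosolic list. The all-gene value is not matched for level. The median of the mean TPM was 13.9 for all tested genes, 314 for members and 246 for the cytosolic list. What sets these libraries apart was not tested.

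The 39 members together made up 1.257%, 1.382% and 1.503% of the TPM total in the WT libraries. In mutant replicates 1 to 4 they made up 1.55%, 1.53%, 1.33% and 1.38%. The groups overlapped, with means of 1.38 ± 0.123% (SD, n = 3) and 1.45 ± 0.110% (SD, n = 4). After TMM scaling the summed level was 14454, 15766 and 17609 TPM in WT and 13975, 14417, 11422 and 12296 TPM in the mutant, so that every mutant library lay below every WT library, with mutant replicate 2 close under WT replicate 1.

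**Figure D2:**
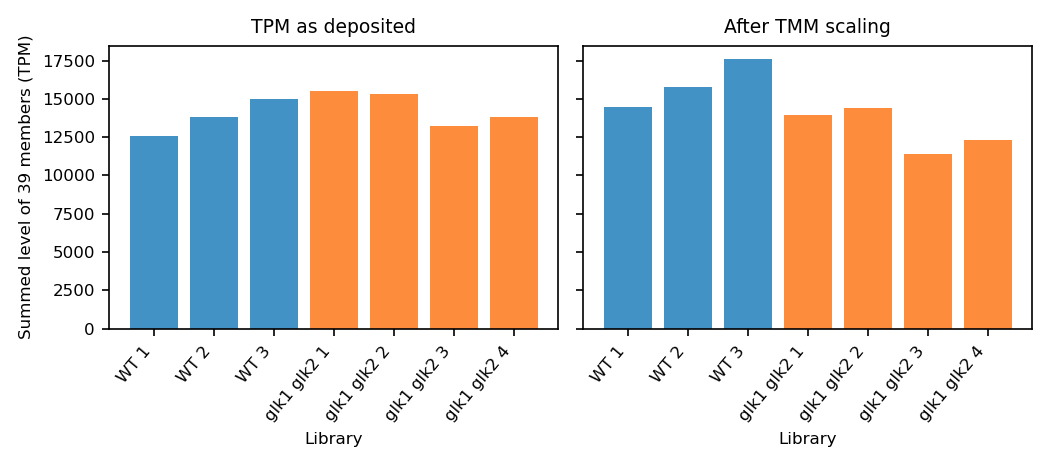
Summed level of the 39 transcripts in each library (bars, 1 value per library, vertical axis in TPM from 0), as deposited on the left and after TMM scaling on the right, with WT in blue and glk1 glk2 in orange. The WT and mutant bars overlap on the left, and all 4 mutant bars are lower than the 3 WT bars on the right.

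A comparison of the members with cytosolic ribosomal proteins needs no scaling between libraries. The summed TPM of the 39 members over that of the 30 cytosolic genes was 2.07, 2.13 and 2.35 in WT and 1.95, 2.02, 1.70 and 1.68 in the mutant. All 4 mutant values lay below all 3 WT values, with means of 2.19 ± 0.148 (SD, n = 3) and 1.84 ± 0.173 (SD, n = 4). The genes of both lists were chosen with results of these data known, so no p-value is given for this ratio.

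Among the small-subunit proteins, S17 binds ribosomal RNA early in assembly in bacteria, and its transcript (AT1G79850) was the most abundant of all members. It stood at 589, 659 and 721 TPM in WT and at 669, 721, 615 and 666 TPM in the mutant. The groups overlapped, at 0.03 ± 0.09 (SE) in log2 TPM and -0.33 ± 0.11 with TMM scaling (limma adjusted p = 0.783 and 0.0971). The other 8 were S1, S5, S6, S9, S10, S13, S20 and S21, with WT means from 221 TPM for S21 to 358 TPM for S9. S1, which binds messenger RNA in bacteria, differed by 0.08 in log2 TPM and by -0.28 with TMM scaling, neither of which was called. On both scales all 9 went uncalled. S10 came nearest in TPM (0.19, limma adjusted p = 0.0591) and S13 with TMM scaling (-0.36, limma adjusted p = 0.0799). SSR16 (AT4G34620), a small-subunit gene outside the 39, stood at 865, 885 and 909 TPM in WT and at 947, 924, 745 and 824 TPM in the mutant, with a fold change of -0.05 in log2 TPM and -0.41 with TMM scaling (limma adjusted p = 0.642 and 0.0645).

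The large subunit carries a stalk of L12 copies that recruits translation factors and is anchored by L10. The nuclear genome holds a cluster of L12 genes on chromosome 3, of which RPL12-A (AT3G27830, chr3:10318455-10319920, plus strand, TAIR10.1) and RPL12-C (AT3G27850, chr3:10324788-10325746, plus strand) are members. RPL12-B (AT3G27840) lies between them and was listed at 0 TPM in all 7 libraries. The bases between each gene's start and its upstream neighbour are shown because the ratio of this similar pair is described next. Capitals mark the longest run of letters that both hold, 15 bases long, which begins 36 bases before the start of RPL12-A and 39 before that of RPL12-C (RefSeq annotation of TAIR10.1, chr3:10318334-10318454 and chr3:10324711-10324787, plus strand, 5′ to 3′).
RPL12-A: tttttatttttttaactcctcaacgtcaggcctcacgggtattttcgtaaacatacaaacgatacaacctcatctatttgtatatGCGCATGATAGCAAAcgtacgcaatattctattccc
RPL12-C: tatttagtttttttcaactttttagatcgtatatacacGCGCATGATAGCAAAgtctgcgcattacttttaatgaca

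RPL12-C was 1 of the 2 members called higher in TPM. It stood at 349, 403 and 435 TPM in WT and at 536, 514, 492 and 458 TPM in the mutant. All 4 mutant libraries lay above all 3 WT libraries, as did those of 62.8% of all tested genes. The log2 fold change was 0.34 ± 0.09 (SE) in TPM (limma adjusted p = 0.0089), close to the all-gene median, and -0.02 ± 0.10 after TMM scaling (limma adjusted p = 0.927). The call in TPM was lost when the library totals were taken without antenna and photosystem transcripts (0.18, limma adjusted p = 0.154).

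RPL12-A, the most similar gene, stood at 501, 530 and 543 TPM in WT and at 590, 544, 526 and 481 TPM in the mutant. The groups overlapped in TPM, with a log2 fold change of 0.03 ± 0.08 (SE), and the mutant lay below WT after TMM scaling, at -0.34 ± 0.09 (limma adjusted p = 0.781 and 0.0609).

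The ratio of RPL12-C to RPL12-A, which needs no scaling, was 0.697, 0.760 and 0.800 in WT and 0.909, 0.945, 0.936 and 0.952 in the mutant. The mutant values lay above the WT values without overlap, and the mean log2 ratio was 0.32 higher in the mutant. The ratios of gene pairs were chosen after their values were seen, so they are given as a description, with no p-value. The coding sequences of the pair are 91.5% identical, and 75.3% of the 50-base stretches in exons of RPL12-C and 81.9% of those of RPL12-A occur once in the genome. The sources used here do not say how reads shared by both were counted, so the level of each is uncertain to that extent.

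L10 (EMB3136, AT5G13510) and L6 (emb2394, AT1G05190), which lies near the factor-binding site in bacteria, followed RPL12-C in the order of change. L10 stood at 462, 510 and 576 TPM in WT and at 640, 612, 579 and 562 TPM in the mutant. L6 stood at 472, 509 and 557 TPM in WT and at 617, 633, 533 and 561 TPM in the mutant. For both transcripts the mutant libraries reached above the WT range but overlapped it. L10 differed by 0.22 ± 0.09 (SE) in log2 TPM and by -0.14 ± 0.10 with TMM scaling (limma adjusted p = 0.0507 and 0.432). L6 differed by 0.19 ± 0.09 in log2 TPM and by -0.17 ± 0.11 with TMM scaling (limma adjusted p = 0.0722 and 0.377).

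At the other end of the large subunit were L13 (emb1473, AT1G78630, chr1:29575806-29577880, plus strand), an early assembly protein in bacteria, and L31 (emb2184, AT1G75350, chr1:28272071-28273009, plus strand). L13 stood at 265, 303 and 327 TPM in WT and at 303, 288, 266 and 247 TPM in the mutant, and L31 at 262, 286 and 282 TPM in WT and at 274, 284, 222 and 268 TPM in the mutant. Both groups overlapped in TPM. After TMM scaling L13 stood at 305, 345 and 383 in WT and at 273, 271, 229 and 220 in the mutant, and L31 at 301, 326 and 331 in WT and at 247, 268, 191 and 239 in the mutant. Every mutant library then lay below every WT library, as in 11.7% of all tested genes.

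The log2 fold change of L13 was -0.47 ± 0.11 (SE) after TMM scaling (limma adjusted p = 0.0323) and -0.11 ± 0.09 in TPM (limma adjusted p = 0.311). That of L31 was -0.44 ± 0.11 after TMM scaling (limma adjusted p = 0.0434) and -0.08 ± 0.09 in TPM (limma adjusted p = 0.430). Leaving out 1 library ended the TMM call of L13 where it was WT replicate 2, WT replicate 3 or mutant replicate 4 (limma adjusted p = 0.130, 0.111 and 0.0644). That of L31 was lost without those libraries too (limma adjusted p = 0.163, 0.129 and 0.0748), and without WT replicate 1 (0.0975) or mutant replicate 1 (0.0816).

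L29 (AT5G65220), which lies beside the exit of the peptide tunnel in bacteria, was the second most abundant member. It stood at 588, 612 and 664 TPM in WT and at 628, 673, 547 and 555 TPM in the mutant, an overlap in TPM. After TMM scaling its mutant libraries lay below WT (-0.41 ± 0.11 SE, limma adjusted p = 0.0598). L19 lies at the interface of the subunits in bacteria and has 2 genes, AT4G17560 and AT5G47190, which were the least abundant members. AT4G17560 stood at 122, 128 and 140 TPM in WT and at 145, 141, 131 and 140 TPM in the mutant. AT5G47190 stood at 158, 175 and 188 TPM in WT and at 200, 188, 166 and 167 TPM in the mutant.

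Both L19 transcripts overlapped between genotypes in TPM. The log2 fold changes were 0.10 ± 0.07 (SE) for AT4G17560 and 0.05 ± 0.09 for AT5G47190 in TPM, and -0.26 and -0.31 after TMM scaling. The ratio of AT4G17560 to AT5G47190 averaged 0.749 ± 0.0240 (SD, n = 3) for WT against 0.776 ± 0.0511 (SD, n = 4) for glk1 glk2, and the groups overlapped. The coding sequences of the L19 pair are 79.8% identical, and all 50-base exonic stretches of both occur once in the genome.

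The remaining 15 large-subunit transcripts had WT means from 209 TPM for L9 to 541 TPM for L24 and overlapped between genotypes in TPM. They were L1, L3, L4, L5, L9, L11, L15, L17, L18, L21, L24, L27, L28, L34 and L35. None was called on either scale. Their log2 fold changes ran from -0.06 for L18 to 0.19 for L1 in TPM, and from -0.42 to -0.17 for the same genes after TMM scaling.

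The PSRPs have no counterpart in the standard set of bacterial ribosomal proteins and spanned the whole range of change among the members. PSRP3/1 (AT1G68590, chr1:25757404-25758411, minus strand), related to a protein encoded in the plastid genomes of some algae, was the other member called higher in TPM. It stood at 204, 237 and 271 TPM in WT and at 335, 340, 286 and 342 TPM in the mutant, all above WT. The log2 fold change was 0.46 ± 0.10 (SE) in TPM (limma adjusted p = 0.0048), where 76.5% of tested genes had a lower value, and 0.10 ± 0.12 after TMM scaling (limma adjusted p = 0.661). With library totals taken without antenna and photosystem transcripts, the change in TPM was 0.30 (limma adjusted p = 0.0569). PSRP3/1 was the only member with a fold change above 0 after TMM scaling.

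Its paralog PSRP3/2 (AT5G15760), which is not among the 39, was far less abundant. It stood at 7.09, 6.59 and 7.25 TPM in WT and at 12.8, 13.3, 11.6 and 10.6 TPM in the mutant, all above WT. The log2 fold change was 0.71 ± 0.09 (SE) in TPM (limma adjusted p = 5.55e-04) and 0.38 ± 0.10 after TMM scaling (limma adjusted p = 0.0523). The ratio of PSRP3/1 to PSRP3/2 averaged 34.1 ± 4.62 (SD, n = 3) for WT against 27.2 ± 3.35 (SD, n = 4) for glk1 glk2, and overlapped.

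PSRP4 (AT2G38140, chr2:15980848-15981612, plus strand), a small protein of the small subunit, had the lowest fold change of the members. It stood at 392, 447 and 494 TPM in WT and at 457, 449, 361 and 376 TPM in the mutant. The groups overlapped in TPM (-0.11 ± 0.11 SE, limma adjusted p = 0.371). After TMM scaling the values were 451, 510 and 579 in WT and 412, 423, 311 and 334 in the mutant, without overlap (-0.48 ± 0.13, limma adjusted p = 0.0615).

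The upstream sequences of PSRP3/1 and PSRP4 are shown as those of the members with the highest and the lowest change (TAIR10.1, 5′ to 3′ on the strand of the gene). For PSRP3/1 these are the 250 bases before the start (chr1:25758412-25758661, minus strand), and for PSRP4 the 84 bases between the start and the neighbouring gene (chr2:15980764-15980847, plus strand). Capitals mark matches to the site II letters TGGGCT, also read as AGCCCA on the other strand, and to the telo box AAACCCTA, here read as TAGGGTTT. PSRP3/1 holds none of the motifs searched.
PSRP3/1: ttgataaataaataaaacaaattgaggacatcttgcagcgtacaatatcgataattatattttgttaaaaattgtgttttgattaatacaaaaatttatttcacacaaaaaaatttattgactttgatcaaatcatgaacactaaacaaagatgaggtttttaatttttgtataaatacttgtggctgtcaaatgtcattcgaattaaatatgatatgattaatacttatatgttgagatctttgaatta
PSRP4: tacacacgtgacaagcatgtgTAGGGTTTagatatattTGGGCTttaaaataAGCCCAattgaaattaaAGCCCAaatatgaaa

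PSRP1 (AT5G24490, chr5:8365601-8367460, plus strand), the plastid relative of bacterial factors that silence idle ribosomes, was the third member called lower after TMM scaling. It stood at 269, 287 and 282 TPM in WT and at 282, 284, 236 and 243 TPM in the mutant, with overlap. After TMM scaling it stood at 309, 328 and 330 in WT and at 254, 268, 204 and 216 in the mutant, all below WT. The log2 fold change was -0.46 ± 0.10 (SE, limma adjusted p = 0.0265) on that scale and -0.10 ± 0.08 in TPM (limma adjusted p = 0.291). Leaving out any 1 of WT replicates 1, 2 and 3 or mutant replicate 4 ended the TMM call (limma adjusted p = 0.0755, 0.120, 0.0902 and 0.0582). Without the filter on low values the TMM calls of PSRP1, L13 and L31 were all lost (limma adjusted p = 0.0882, 0.103 and 0.123).

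PSRP2 carries RNA-recognition motifs, and PSRP5 and PSRP6 belong to the large subunit. PSRP2 (AT3G52150) stood at 179, 192 and 210 TPM in WT and at 228, 215, 196 and 190 TPM in the mutant. PSRP5 (AT3G56910), the third most abundant member by the mean of all 7 libraries, stood at 464, 548 and 586 TPM in WT and at 632, 641, 521 and 581 TPM in the mutant. PSRP6 (AT5G17870) stood at 181, 185 and 217 TPM in WT and at 201, 208, 176 and 191 TPM in the mutant. All 3 overlapped in TPM, with log2 fold changes of 0.09, 0.16 and 0.00, and none was called after TMM scaling, at -0.27, -0.20 and -0.36 (limma adjusted p = 0.144, 0.352 and 0.0744).

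The share of each member in the summed TPM of all 39 shows which transcripts moved relative to the set, without any scaling between libraries. The mutant shares lay above all WT shares for 7 members and below them for 9, and overlapped for 23. Measured against the same sum, 37.2% of all tested genes lay above and 2.67% below. The 7 were S10, L1, L5, L6, L10, RPL12-C and PSRP3/1, and the 9 were S13, S20, S21, L13, L18, L27, L29, PSRP1 and PSRP4.

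The share of PSRP3/1 was 1.63%, 1.72% and 1.81% in WT and 2.16%, 2.23%, 2.16% and 2.47% in the mutant. The share of RPL12-C was 2.78%, 2.91% and 2.89% in WT and 3.46%, 3.36%, 3.71% and 3.31% in the mutant. The share of PSRP4 was 3.12%, 3.23% and 3.29% in WT and 2.95%, 2.94%, 2.72% and 2.72% in the mutant. The shares of these transcripts differed between genotypes without overlap, while those of most members overlapped. These transcripts were picked by their fold changes in the same data, and their shares were not tested.

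**Figure D3:**
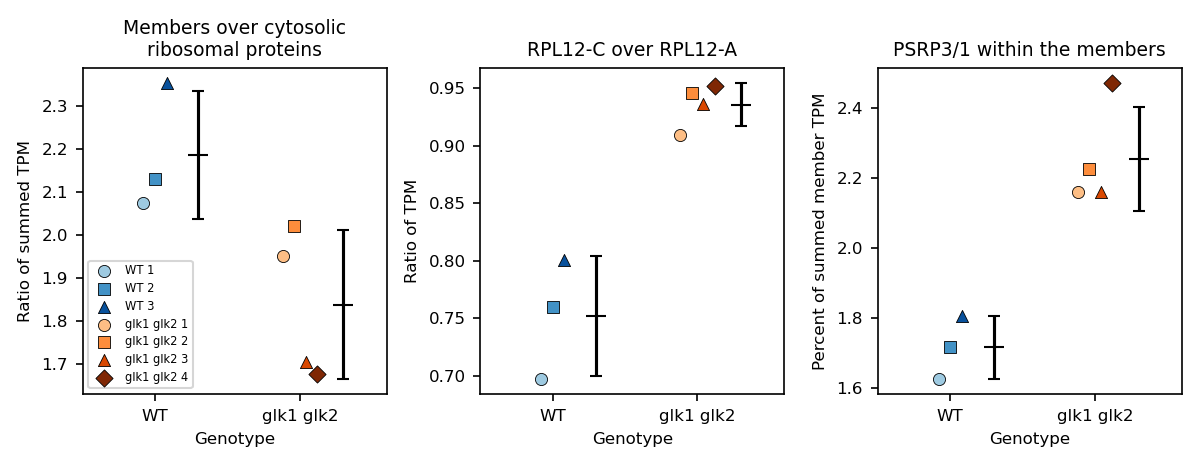
Ratios within a library, with 1 symbol per library and the mean ± SD of each genotype beside them (vertical axes do not start at 0). The ratio of the 39 members to 30 cytosolic ribosomal proteins (left, ratio of summed TPM) is lower in all 4 glk1 glk2 libraries than in the 3 WT libraries, and the RPL12-C to RPL12-A ratio (middle, ratio of TPM) and the percent of the summed member TPM held by PSRP3/1 (right) are higher.

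Other parts of plastid translation did not all behave as the nuclear ribosomal protein genes did. Of 25 tested genes for ribosomal proteins in the chloroplast genome, 11 (44.0%) were called higher and 2 (8.0%) lower in TPM. Of all tested genes, 63.0% were called higher and 2.56% lower. With TMM scaling 0 were called higher and 1 (4.0%) lower, where 3.2% and 4.96% of all tested genes were called. The median log2 fold changes of the 25 were 0.32 in TPM and -0.04 after TMM scaling. ATCG00050 fell with both scalings from a low level, from 1.64, 1.65 and 1.13 TPM in WT to 0.39, 0.57, 0.20 and 1.03 TPM (-0.70 in TPM, limma adjusted p = 0.0112, and -0.87 after TMM scaling, limma adjusted p = 0.0223). The files and annotation used give no protein name for that identifier, and transcripts without a poly(A) tail are measured only as far as the library method keeps them.

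Of 14 plastid translation factors, the calls in TPM were 9 higher (64.3%) with 1 lower (7.14%), where 63.0% and 2.56% of all tested genes were called. With TMM scaling they were 0 higher with 1 lower (7.14%), where 3.2% and 4.96% of all tested genes were called. The medians of the 14 were 0.28 and -0.08. A gene for plastid initiation factor 3 (AT4G30690) fell with both scalings, from 81.6, 77.1 and 83.2 TPM to 69.5, 77.6, 68.9 and 64.9 TPM. One mutant library of the 4 reached into the WT range, and the log2 fold changes were -0.20 ± 0.07 (SE) in TPM (limma adjusted p = 0.0321) and -0.56 ± 0.09 after TMM scaling (limma adjusted p = 0.0055).

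Genes for assembly of the plastid ribosome and maturation of its RNA stood at the opposite side of the all-gene median from the ribosomal proteins. All 12 tested were called higher in TPM by limma and 3 were called higher after TMM scaling, with medians of 0.69 and 0.35. The 3 called after TMM scaling were those that rose with both scalings. NOA1 (AT3G47450) rose from 10.3, 11.1 and 13.2 TPM to 22.5, 19.5, 22.01 and 20.8 TPM (0.83 in TPM and 0.49 after TMM scaling, limma adjusted p = 3.62e-04 and 0.0134).

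The other two were emb2738 and BPG2. The transcript of emb2738 (AT3G12080) rose from 20.03, 24.3 and 24.9 TPM to 43.1, 37.9, 42.1 and 41.3 TPM (0.81 and 0.46, limma adjusted p = 3.18e-04 and 0.0114). BPG2 (AT3G57180) rose from 8.19, 7.87 and 8.67 TPM to 14.9, 12.1, 13.2 and 13.7 TPM (0.64 and 0.31, limma adjusted p = 5.82e-04 and 0.0464). All mutant values of the 3 lay above all WT values in TPM, as did those of 62.8% of all tested genes.

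By median, cytosolic ribosomal proteins followed the bulk of genes. Of 30, limma called 29 (96.7%) higher in TPM, against 63.0% of all tested genes. The median log2 fold change of the 30 was 0.32 in TPM and -0.04 after TMM scaling. RPL3B (AT1G61580) was the only 1 of the 30 to rise with both, from 9.86, 10.8 and 10.11 TPM to 16.0, 17.4, 16.0 and 20.4 TPM (0.71 and 0.37, limma adjusted p = 6.21e-04 and 0.0493).

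**Figure D4:**
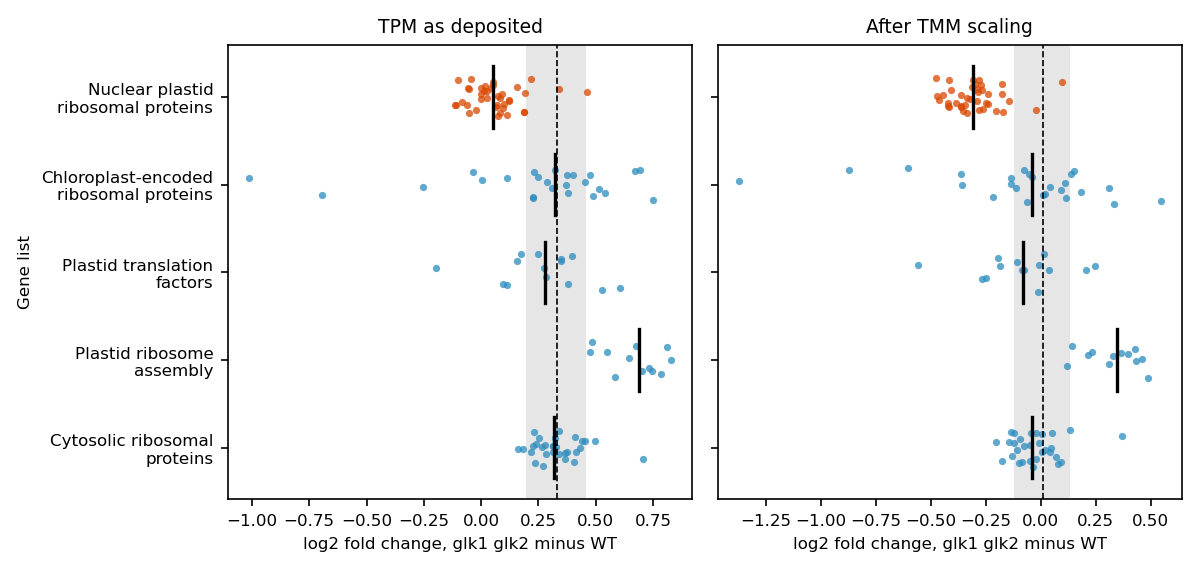
log2 fold change (glk1 glk2 minus WT) of each tested gene in 5 lists, in TPM on the left and after TMM scaling on the right; each point is a gene, the thick bar is the list's median, and the dashed line and grey band are the median and quartiles of all 19127 tested genes. The 39 members centre on 0.05 and -0.31, left of the grey band in both panels, and the assembly genes centre on 0.69 and 0.35, right of it.

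The 250 bases before each annotated gene start were searched on both strands for letters known from plastid and ribosomal promoters. CCAATC, described upstream of GLK targets, was found for 4 of the 39 members (10.3%), against 10.2% of 27561 nuclear protein-coding genes. AGATTCT, a GARP-type element, was found for 1 member (2.56%), against 6.25%. The site II letters TGGGCC were found for 12 members (30.8%), against 13.6%, and TGGGCT for 7 (17.9%), against 12.3%. Of the 39 members 14 (35.9%) held at least 1 of the site II forms, against 19.1% of all genes and 60.0% of the 30 cytosolic ribosomal protein genes. The telo box AAACCCTA was found for 4 members (10.3%), against 4.47%. Both L19 genes held TGGGCC, and neither L12 member held any of these letters.

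Overlap with other genes was common among the members, and the sources used here do not give the strand setting of the authors' quantification. In the RefSeq annotation 15 of the 39 overlap a gene on the opposite strand and 2 a gene on the same strand. PSRP3/1 is overlapped by AT1G68585, which stood at 5.84 to 10.3 TPM over the 7 libraries, L31 by AT1G75340 at 13.1 to 23.4 TPM and PSRP1 by AT5G24500 at 15.4 to 25.5 TPM. The highest levels among overlapping genes were 68.2 to 85.0 TPM for AT1G64520, opposite S6 (277 to 336 TPM), and 29.01 to 60.02 TPM for AT4G01290, on the same strand as L5 (275 to 355 TPM). In 36 of the 39 every 50-base exonic stretch occurs once in the genome, and the exceptions are RPL12-A, RPL12-C and S21 (91.7%).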

How the data were processed

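The authors deposited 1 table of TPM values with 1 column for each of 7 libraries. Per the submitters' processing notes, TopHat2, Cufflinks and build TAIR10 were used, and per the labels RNA was extracted with TRIzol and sequenced as DNA nanoballs. The sources used here do not give versions, annotation, strand setting or the treatment of shared reads. Each column sums to 1000000 and lists 22580 to 22693 genes above 0, so the read depth is unknown and no counting interval is given.

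The identifiers of 5606 rows are out of alphabetical order. Across genes of those rows, log2(TPM + 1) in WT replicate 1 and its mean over the remaining libraries correlated at r = 0.055 as deposited and at 0.995 once the column was assigned alphabetically (0.995 elsewhere). It was read in that order, which touches 12 of the 39 members.

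Genes with at least 1 TPM in at least 3 libraries were tested (19127, all 39 members included). Values of log2(TPM + 1) were compared with limma 3.58.1 in R 4.3.3 (mean-variance trend, two-sided), as deposited and after division by TMM factors from the same table (log ratios trimmed by 30%, levels by 5%). The fit was tested on simulated data. Promoters, gene positions, motif matches and identities came from the RefSeq annotation of TAIR10.1 with Biopython 1.88. The members, lists and rules were chosen with earlier results of these data known. Values per library are given for members called with both scalings, the 4 highest and 4 lowest fold changes after TMM scaling, the 3 highest and 3 lowest mean TPM, the PSRPs and the L12 and L19 pairs, and for up to 4 genes per other list called with both scalings. AT2G33430 of the assembly list was not analysed here. Alternatives changed the pseudocount, filter, variance model, scaling, library totals, threshold, row order, replicate block and libraries used.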

Additional observations from a re-analysis of the deposited data

Results flagged for a closer look

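Within the 4 glk1 glk2 libraries, PSRP3/1 (AT1G68590) had 1 library apart from the others. Replicate 3 stood at 286 TPM, below 335, 340 and 342 TPM in the others, and its gap to the nearest was 0.879 of the group's range, above the 95% critical value of Dixon's test. Chance gives such a gap in about 1 in 20 groups, and 40 groups were examined. Replicate 3 was also the lowest mutant library for 28 of the 39 members. Its value lay above all 3 WT values.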

How the results depend on the processing

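Counts of members called with both scalings were 0 higher in all alternatives run and 0 lower in all but 1. With library totals taken without 41 antenna and photosystem genes, 1 member (PSRP1) was called lower in TPM and with both scalings, and 0 were called higher in TPM. The median change of members in TPM was then -0.11. The all-gene median was 0.19 in that setting, against 0.33 in the main fit. Members called lower after TMM scaling numbered 0 without a filter, at an adjusted p under 0.01 and with WT replicate 1 in the file's row order, 23 with array weights, and 3 with quantile normalization in its place. The median change of members was -0.19 with quantile normalization and -0.22 with array weights after TMM scaling, against -0.31 in the main fit. The all-gene medians were 0.02, 0.01 and 0.01. Members called higher in TPM numbered 14 with array weights and 1 with the file's row order, where RPL12-C was lost (limma adjusted p = 0.243). Leaving out 1 library at a time gave 2 to 6 members higher in TPM (6 without WT replicate 3) and 0 to 9 lower after TMM scaling (9 without mutant replicate 2), with medians of -0.02 to 0.13 and -0.38 to -0.22. The call of L31 was also lost without the mean-variance trend (limma adjusted p = 0.0579). Of 1365 values of single members under alternatives, 25 calls were lost, 51 were gained, 0 called values changed sign, and 100 uncalled values did. The causes were not tested.

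Same-numbered libraries of both genotypes deviated together at r = -0.096, 0.171 and 0.155. For unlike numbers r ran from -0.239 (WT replicate 3 with mutant replicate 4) to 0.275 (WT replicate 1 with mutant replicate 4). The same-numbered values lay within that range, so the numbers were not taken as pairs. A fit with the replicate number as a block, without mutant replicate 4, called 0 members lower after TMM scaling and 2 higher in TPM.

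Precision is limited by the number of libraries and the fixed sum of TPM. Levels near 1 TPM rest on an unknown number of reads.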
